A study of Mus musculus and Acomys cahirinus with 25 samples.

Results

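The complement components and regulators described here are 9 genes, C1ra, C1s1, C4b, C2, C3, Cfb, Serping1, C3ar1 and C5ar1, taken by symbol from the 24500 gene rows of RNA-seq counts of wounded and unwounded dorsal skin. All 9 had a row in each of the 25 libraries, though some of them had no reads in some epidermis libraries. Of these, 13 libraries came from laboratory mice at post-wound day (PWD) 14, when new hair primordia form in the wound center. They were wild-type epidermis of the wound center (n = 2) and of the wound margin (n = 2), wild-type dermis of the center (n = 5) and of the margin (n = 2), and dermis of the center of mice labelled KO (n = 2). The study's methods give these as K14-Cre-Twist1 mice, in which Cre recombinase driven by the keratin 14 promoter deletes Twist1 in keratinocytes, so that the gene is targeted in the epidermis and not in the dermis that was sequenced. The other 12 libraries were wild-type spiny mouse (Acomys cahirinus) skin or whole wounds, with epidermis at PWD0 (n = 1), PWD14 (n = 2), PWD21 (n = 2) and PWD28 (n = 1) and dermis at PWD0 (n = 2), PWD14 (n = 1), PWD21 (n = 2) and PWD28 (n = 1), the days being those of the labels. A table of the study lists the wound days of these spiny mouse libraries slightly differently, and the sources used here do not settle which are right. According to the methods, laboratory mice were wounded at 4 weeks of age, spiny mice were 2 months old and both sexes were used. C57BL/6J was the main laboratory strain, K14-Cre-Twist1 mice came from a cross of a conditional Twist1 line with a keratin 14 Cre line, and their controls were a Twist1+/+ group. Layers were parted by hand under a microscope, after trypsin treatment in spiny mice only. Nothing in the labels ties the libraries to individual animals, so p-values measure the spread between these libraries.

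Complement is a cascade of proteases and opsonins that marks microbes and damaged cells. In the classical pathway the C1q recognition molecule activates the serine proteases C1r and C1s, which cleave C4 and C2 to build a convertase that splits C3. The alternative pathway uses factor B in place of C2 and amplifies the same step. The anaphylatoxins released from C3 and C5 act on myeloid cells through the receptors C3aR and C5aR1, and C1 inhibitor, the product of Serping1, inactivates C1r and C1s. In skin, fibroblasts and macrophages are known producers of these proteins.

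3 of the members have a near-identical copy in the mouse genome, which decides what their counts mean. C1ra (GRCm38, chr6:124512621-124523440) and C1s1 (chr6:124530344-124542392) lie next to each other, with their copies C1rb (chr6:124570430-124581044) and C1s2 (chr6:124624625-124636085) further along the chromosome. C4b (chr17:34728139-34743902) and its copy C4a (chr17:34809092-34823460) lie beside Cfb (chr17:34856374-34862514) and C2 (chr17:34862602-34882100). Aligned GENCODE M21 transcripts were 98.0% identical between C1ra and C1rb (2380 of 2429 bases), 95.9% between C1s1 and C1s2 (2553 of 2661 bases) and 96.1% between C4b and C4a (5160 of 5367 bases). The reads were 75 bases long, and of all 75-base windows of the member's transcript, 40.1% for C1ra, 14.7% for C1s1 and 23.5% for C4b were found letter for letter in the copy. A read from such a window cannot be assigned to either gene by its own sequence. Laboratory mouse epidermis was sequenced as paired-end reads, and these shares do not take the second read of a pair into account. For each pair, the window in the middle of the ranking by number of differences, among windows inside 1 coding exon of the member, is printed to show how little parts the copies, with the differing bases in capitals.
C1ra, chr6:124513788-124513862, plus strand: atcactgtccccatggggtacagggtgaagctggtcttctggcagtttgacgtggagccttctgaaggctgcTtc
C1rb, chr6:124571492-124571566, plus strand: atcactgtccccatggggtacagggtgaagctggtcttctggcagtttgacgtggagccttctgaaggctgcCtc
C1s1, chr6:124531625-124531699, minus strand: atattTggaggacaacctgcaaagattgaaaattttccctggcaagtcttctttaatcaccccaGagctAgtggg
C1s2, chr6:124625847-124625921, minus strand: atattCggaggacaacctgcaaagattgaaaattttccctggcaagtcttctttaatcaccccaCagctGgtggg
C4b, chr17:34740012-34740086, minus strand: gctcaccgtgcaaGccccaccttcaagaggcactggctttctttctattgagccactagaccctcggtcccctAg
C4a, chr17:34819535-34819609, minus strand: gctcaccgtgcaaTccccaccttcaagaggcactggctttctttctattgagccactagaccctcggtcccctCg

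In laboratory mice, the copies took few of the reads. C1rb held a median of 3.13% of the reads of its pair over the 13 libraries, from 0 to 42.6%, the highest share being 1 library of margin epidermis. C1s2 held a median of 3.38%, from 0 to 6.32%. In spiny mice, whose reads were aligned to the laboratory mouse genome, the median was 32.1% for C1rb (26.1 to 58.0%) and 39.6% for C1s2 (19.6 to 60%). The lowest of these shares lay above those of all laboratory mouse libraries for C1s2 and of all but the 1 named for C1rb. C4a held between 22.8% and 37.0% of the C4 reads in the 6 spiny mouse dermis libraries. In the 4 laboratory mouse epidermis libraries the C4 reads went the other way, since C4b had 0 reads in each and C4a had 14 and 14 in the center and 10 and 128 in the margin, whereas in laboratory mouse dermis C4a took between 0 and 13.4%. Counts of C1ra, C1s1 and C4b therefore stand for the member alone only as far as the alignment could part the copies, and results for them were also computed on the sum of each pair.

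**Figure D1:**
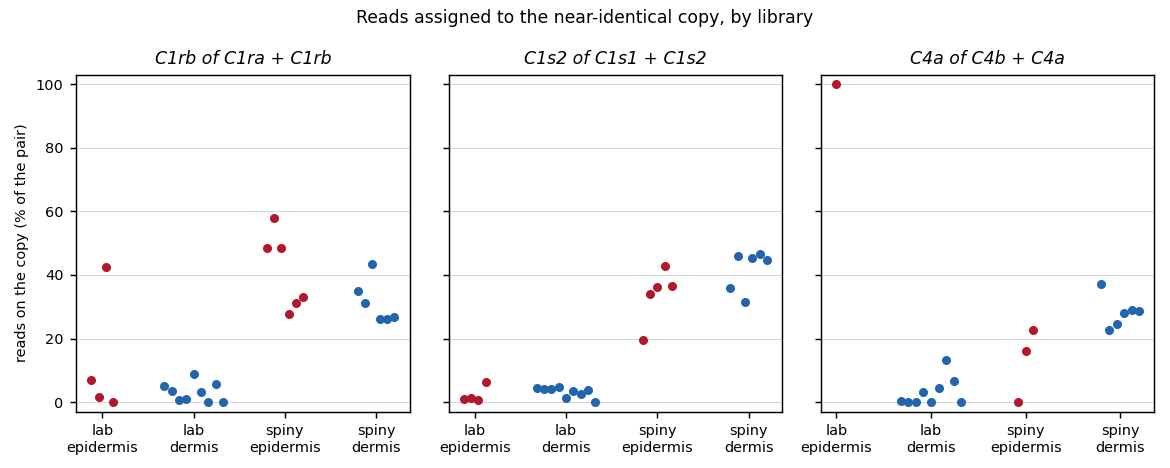
Percent of the reads of each pair that were assigned to the copy (C1rb, C1s2 or C4a), on the y axis, for each library with at least 20 reads on the pair, by species and layer on the x axis (red, epidermis; blue, dermis). Most laboratory mouse libraries lie under 10%, whereas the spiny mouse libraries lie mostly between 20 and 60% for C1rb and C1s2, and the single laboratory mouse epidermis library shown for C4 has all of its 128 reads on C4a.

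Laboratory mouse libraries held 19413261 to 86532134 reads on genes and spiny mouse libraries 5669760 to 34751956, so that 3 reads, the least amount taken as detectable, correspond to between 0.0347 and 0.529 CPM (counts scaled to a library total of 1000000 reads on genes). Intervals and floors cover counting error only. The share of reads placed on genes was 57.7 to 69.8% in laboratory mice and 24.4 to 52.9% in spiny mice, and CPM values are not compared between species. The labels give laboratory mouse epidermis as stranded paired-end reads and laboratory mouse dermis as stranded single-end reads, so that layer and read type cannot be told apart there, whereas both spiny mouse layers were unstranded single-end. Layers were as labelled by their markers: the summed level of 12 keratinocyte genes was 40770 to 214600 CPM in the epidermis libraries, and that of 14 fibroblast genes was 68570 to 161400 CPM in the dermis libraries. The exception was replicate 2 of K14-Cre-Twist1 dermis, with 35330 CPM of keratinocyte genes against 1045 CPM in replicate 1 and 40.2 to 662 CPM in the wild-type wound center dermis. In bulk tissue, fewer cells of a type and less RNA per cell cannot be told apart.

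Complement transcripts were mainly dermal in both species. All 9 members were called lower in epidermis than in dermis in the laboratory mouse wound center, in the laboratory mouse wound margin and in spiny mice at PWD21. Background was high, since 24.3% of 15531 genes were called lower in epidermis in the center, 26.4% in the margin and 33.5% of 14966 genes in spiny mice at PWD21. In each comparison the libraries of the 2 layers did not overlap for any member, but the share of all genes without overlap was not computed. The median log2 fold change of the 9 members was -4.00, -5.37 and -4.07, beside medians of all tested genes of 0.00, -0.15 and -0.06. Calls were made by edgeR's quasi-likelihood test at a false discovery rate (FDR) under 0.05, and for the members in laboratory mice the FDR lay between 4.93e-07 and 0.00182.

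The proteases of the C1 complex showed this pattern at high counts. C1s1 was at 12.7 and 10.4 CPM in center epidermis and 7.99 and 5.14 CPM in margin epidermis, against 305.3 and 338.7 CPM in the 2 center dermis libraries used for this comparison and 372.4 and 454.0 CPM in margin dermis. Its log2 fold change was -4.00 (SE 0.29) in the center and -5.15 (SE 0.32) in the margin. C1ra, the partner that activates C1s, was at 4.64 and 4.74 CPM in center epidermis and 1.98 and 1.13 CPM in margin epidermis, against 119.5 and 102.1 CPM in center dermis and 113.6 and 102.7 CPM in margin dermis. The log2 fold change of C1ra was -3.76 (SE 0.32) in the center and -5.37 (SE 0.37) in the margin. Both proteases were thus more than an order of magnitude lower in epidermis, and remained called when the copies were summed.

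C4b, whose product is cleaved by C1s, had no read in any laboratory mouse epidermis library. In dermis it was at 14.3 and 15.5 CPM in the center and 34.4 and 22.9 CPM in the margin. Against the level of 3 reads per library, the epidermis was at least 274-fold lower in the center and at least 337-fold lower in the margin on the CPM scale. That bound holds for the C4b row alone, because the epidermal C4 reads were all on C4a. With both C4 genes summed, the log2 fold change was -5.21 in the center (edgeR FDR = 0.00011) and -3.95 in the margin (edgeR FDR = 0.000135).

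C2 and Cfb encode the catalytic subunits of the C3 convertases of the classical and alternative pathways. C2 was at 0.942 and 0.832 CPM in center epidermis and 0 and 0.509 CPM in margin epidermis, against 89.0 and 94.7 CPM in center dermis and 44.3 and 72.3 CPM in margin dermis. The log2 fold change was -5.88 (SE 0.54) in the center and -6.54 (SE 0.62) in the margin. Cfb was at 1.08 and 0.145 CPM in center epidermis and 0 and 0.116 CPM in margin epidermis, with 45.1 and 32.6 CPM in center dermis and 21.7 and 22.9 CPM in margin dermis. Its log2 fold changes were -5.11 (SE 0.63) and -7.22 (SE 0.89), the margin values resting on few epidermal reads.

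C3, the protein on which all pathways converge, differed least between layers in laboratory mice. It was at 2.49 and 2.52 CPM in center epidermis and 3.46 and 0.821 CPM in margin epidermis, against 29.9 and 29.2 CPM in center dermis and 45.2 and 28.4 CPM in margin dermis. The log2 fold change was -2.76 (SE 0.56) in the center and -3.48 (SE 0.60) in the margin.

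Serping1, the inhibitor of C1r and C1s, was among the most dermal members. It was at 3.24 and 2.97 CPM in center epidermis and 0 and 0.462 CPM in margin epidermis, against 267.8 and 214.6 CPM in center dermis and 326.9 and 377.6 CPM in margin dermis. The log2 fold change was -5.48 (SE 0.44) in the center and -9.27 (SE 0.57) in the margin.

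Of the anaphylatoxin receptors, C3ar1 was at 5.70 and 4.52 CPM in center epidermis and 2.24 and 3.46 CPM in margin epidermis, against 121.8 and 142.1 CPM in center dermis and 96.8 and 86.6 CPM in margin dermis. C5ar1 was at 1.06 and 1.14 CPM in center epidermis and 0.283 and 0.462 CPM in margin epidermis, against 31.8 and 14.4 CPM in center dermis and 30.9 and 13.8 CPM in margin dermis. The log2 fold changes in the center were -3.88 (SE 0.31) for C3ar1 and -3.61 (SE 0.64) for C5ar1, and those in the margin were -4.12 (SE 0.32) and -4.96 (SE 0.75).

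In spiny mice at PWD21 the order of the members differed. Serping1 differed most between layers, with 4.73 and 0.856 CPM in epidermis against 583.5 and 396.0 CPM in dermis, a log2 fold change of -7.22 (SE 0.74, edgeR FDR = 0.000129). C1s1 differed least, with 9.64 and 7.77 CPM in epidermis against 81.9 and 50.1 CPM in dermis and a log2 fold change of -2.78 (SE 0.30), and C1ra was close to it, with 22.4 and 21.7 CPM against 267.3 and 203.4 CPM and -3.29 (SE 0.22). Per kilobase of transcript, these were the highest members in that epidermis, C1ra at 7.39 and C1s1 at 2.95 CPM per kb, with Serping1 next at 1.58. C3 stood at -4.87 (SE 0.34), C4b at -5.45 (SE 0.67), C2 at -4.07 (SE 0.42), Cfb at -3.10 (SE 0.56), C3ar1 at -4.01 (SE 0.37) and C5ar1 at -4.33 (SE 0.41).

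**Figure D2:**
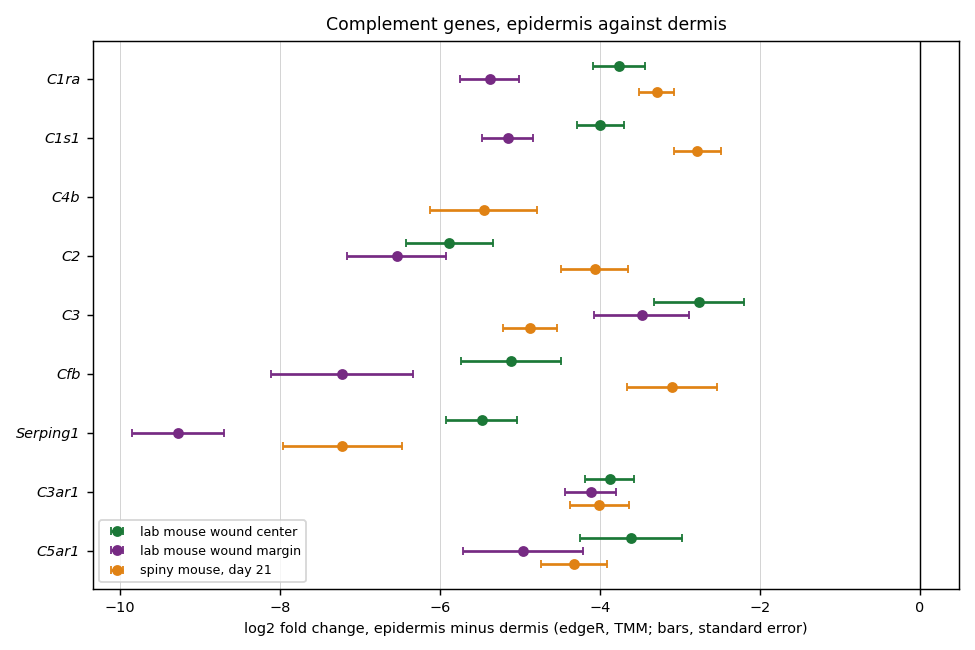
Log2 fold change of epidermis against dermis (x axis; dots, edgeR estimates; bars, standard error) of each member (y axis) in the laboratory mouse wound center and margin (4 groups of 2 libraries) and in spiny mice at PWD21 (2 against 2). All points lie left of 0, and C4b is not drawn for laboratory mice, where its epidermal count is 0.

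Markers of several dermal cell types moved with these differences. Of the marker lists, 14 of 14 fibroblast and 8 of 8 endothelial genes were called lower in epidermis in both laboratory mouse regions. Of 10 macrophage genes, 8 were called lower and 1 higher in the center, and 9 lower and 1 higher in the margin. Neutrophil genes were mixed, with 3 of 5 tested called higher in epidermis and 1 lower in the center, and 1 higher and 2 lower in the margin. The summed fibroblast level was 4739 to 5745 CPM in center epidermis, 706 to 2089 CPM in margin epidermis and 103400 to 154600 CPM in the dermis libraries of the wild type. For macrophage genes it was 362 to 451 CPM in epidermis, where Cd163 had no reads, against 2748 to 5542 CPM in wild-type dermis. In spiny mice at PWD21, 13 of 14 fibroblast, 8 of 8 endothelial and 9 of 10 macrophage genes were called lower in epidermis. There 1 fibroblast gene was called higher, and of 5 neutrophil genes tested 2 were called lower and 1 higher. The part of these cell types in the difference of the complement genes was not tested.

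Scaling bears on the size of the layer differences. When libraries were scaled to their totals alone, without the trimmed mean of M values (TMM), the median log2 fold change of all tested genes moved by -0.74 in the laboratory mouse center, by -0.84 in the margin and by -0.12 in spiny mice, and the share of called genes that were higher in epidermis went from 51.6% to 27.2%, from 46.6% to 20.9% and from 46.7% to 42.1%. All 9 members were still called lower in each comparison.

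**Figure D3:**
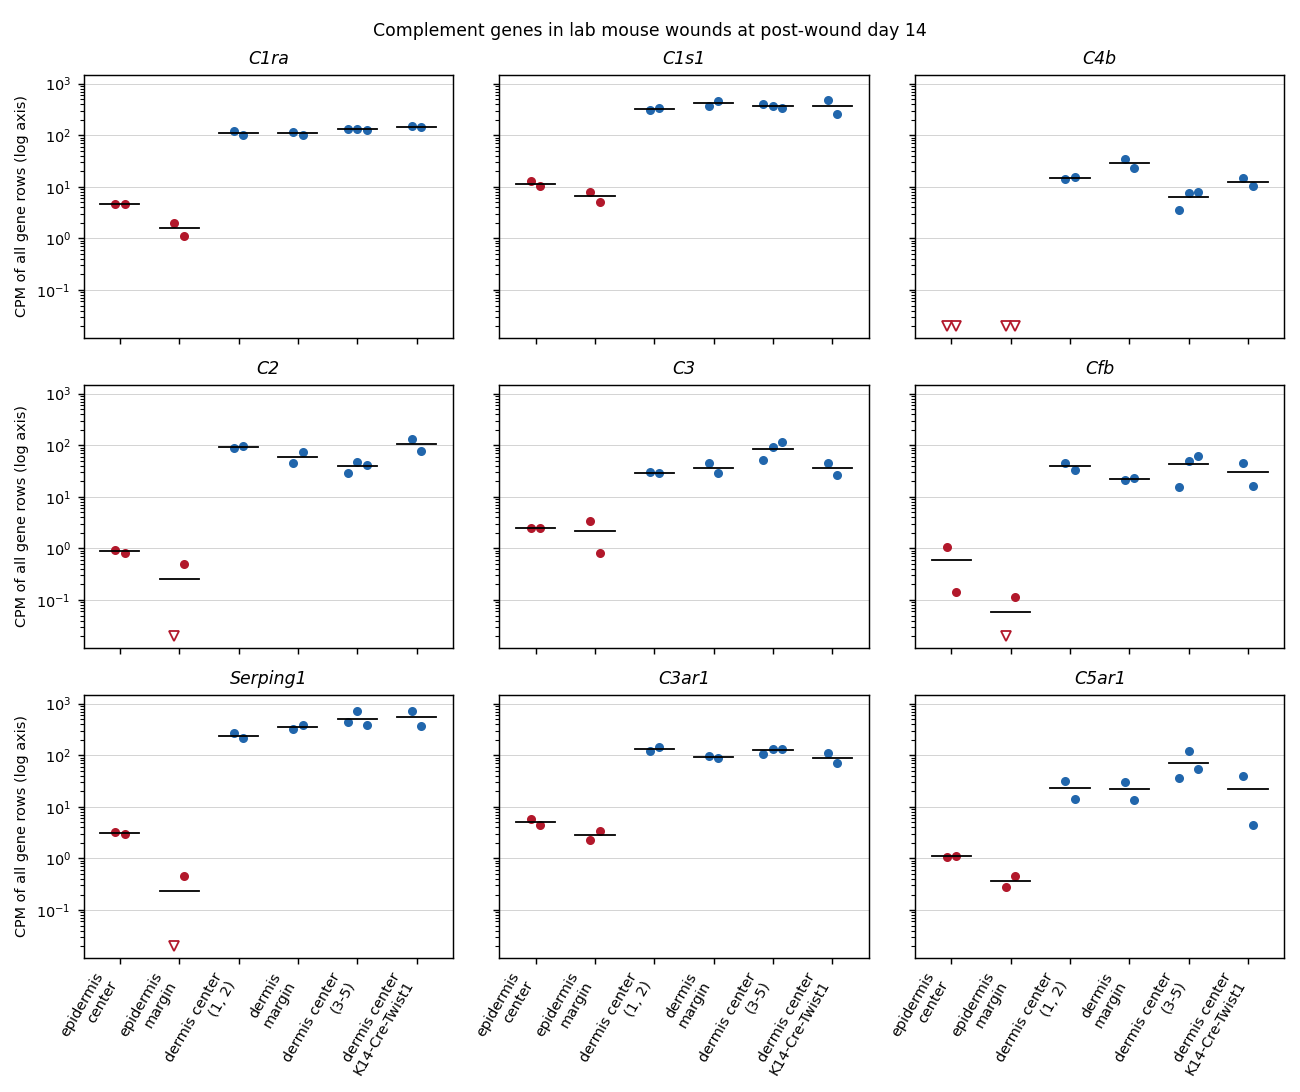
CPM of all gene rows (y axis, log scale) of each member in the laboratory mouse libraries at PWD14, by group (x axis; red, epidermis; blue, dermis; dots, libraries; lines, group means; open triangles, libraries with 0 reads). The wild-type center dermis is split into the libraries compared with the margin (1, 2) and those compared with K14-Cre-Twist1 (3-5), and every dermis library lies above every epidermis library.

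Within the dermis, the levels of the members per kilobase of their longest transcript had a common lead. Serping1 was the highest in all 7 dermis groups of both species, at 229.4 CPM per kb in the 5 wild-type center libraries (121.4 to 403.1), 199.3 in laboratory mouse margin (184.9 to 213.6) and 277.0 in spiny mice at PWD21 (224.0 to 330.0). C1s1 came next in laboratory mice, at 118.5 CPM per kb in wild-type center (103.6 to 134.9), a range that overlaps with that of Serping1, and C1ra followed at 41.1 (34.3 to 44.5). C3ar1, C2, C5ar1, Cfb and C3 came after it with ranges that overlap from each to the next, and C4b was lowest at 1.81 (0.650 to 2.87). In spiny mice at PWD21, C1ra came after Serping1 at 79.0 CPM per kb (68.2 to 89.7), and then C1s1 at 22.4 (17.0 to 27.8), a range that overlaps with that of C3 at 17.7 (13.5 to 21.9). In those PWD21 dermis libraries C1s2 held 45.3% and 46.7% of the reads of its pair, and C1rb 26.1% and 26.2%. The order and the overlap with C3 hold for the member rows alone, with reads on the copies left out. Values per kb use laboratory mouse transcript lengths and are given as a description.

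Setting wound center against margin asks how the hair-forming center of the laboratory mouse wound differs from its surround. In the epidermis, the 7 members that passed the filter on low counts were all nominally higher in the center, and none was called at an FDR under 0.05, beside 1.24% of 14165 genes. At an unadjusted p under 0.05 there were 2 members, beside 23.5% of all genes, and DESeq2, edgeR's likelihood ratio test and the edgeR 3 form of the test also called 0. These 2 were Serping1, with a log2 fold change of 3.20 (SE 0.79, edgeR FDR = 0.107), and C1ra, with 1.61 (SE 0.50, edgeR FDR = 0.148). The center and margin libraries did not overlap for C1ra, C1s1, C2, Serping1, C3ar1 and C5ar1, whereas for C3 both center values lay between those of the margin. The share of all genes without overlap was not computed, so the lack of overlap is a description only. C4b and Cfb did not pass the filter.

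Margin epidermis replicate 1 had 0 reads of Serping1, C2 and Cfb, and the count of calls depended on which margin library was kept. Without it 4 members were called higher in the center (C3, C1ra, C1s1 and Serping1), and without margin replicate 2 there were 2 (C2 and Serping1), in fits that called 5508 and 7405 genes. With all 13 laboratory mouse libraries in 1 fit, only C1ra was called, with a log2 fold change of 1.68 (edgeR FDR = 0.0158). Fibroblast genes moved the same way, 2 of 14 being called higher in center epidermis and 12 of 14 positive, as did 8 of 8 endothelial genes with a positive log2 fold change. Neutrophil sums were 254.1 and 404.7 CPM in the center against 111.0 and 41.4 CPM in the margin, with 3 of 4 tested genes positive and none called. Of the 11 listed neutrophil genes, Ly6g, Retnlg, Ngp and Elane had no read in the center and 6 had none in the margin. These sums therefore do not stand for the list as a whole. Macrophage sums were 418.3 and 450.5 CPM against 427.5 and 361.5 CPM. The part of these cell types was not tested.

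In the dermis, none of the 9 members was called between center and margin, beside 0.85% of 14698 genes, and DESeq2 and the other 2 forms of the edgeR test called 0 as well. Data were also simulated with 1 spread shared by all genes of this comparison. There the main test recovered 48% of 200 genes given a log2 fold change of 3. Unadjusted p under 0.05 was reached by 4 members, beside 15.8% of all genes. C2 was at 89.0 and 94.7 CPM in the center against 44.3 and 72.3 CPM in the margin (log2 fold change 0.75, SE 0.26, edgeR FDR = 0.225). Cfb (0.90, SE 0.35) and C3ar1 (0.61, SE 0.21) were also nominally higher in the center, and Serping1 was nominally lower, at -0.45 (SE 0.20). C4b was at -0.87 (SE 0.42, edgeR FDR = 0.366) with no overlap between 14.3 and 15.5 CPM in the center and 34.4 and 22.9 CPM in the margin. In the same comparison 5 of 12 keratinocyte genes were called lower in the center, with sums of 458 to 662 CPM against 2265 to 4504 CPM.

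Whether the center-margin difference depends on the layer was tested as an interaction in 1 fit of 8 libraries. Serping1 was the 1 member called, beside 3.48% of 15531 genes, with a center-margin log2 difference that was 3.79 larger in epidermis than in dermis (SE 0.71, edgeR FDR = 0.0122). It was nominally higher in center epidermis and nominally lower in center dermis. The background of this contrast was one-sided, since 96.1% of the 540 genes called were positive and the median over all genes was 0.31, beside a median of 1.16 over the 9 members. The call was lost in DESeq2 (FDR = 0.103), in the edgeR 3 form of the test (FDR = 0.0699) and without any 1 of center epidermis replicate 1, center dermis replicate 2, margin dermis replicate 1 or margin dermis replicate 2, where the edgeR FDR was 0.054 to 0.0817. C1ra at 1.61 (SE 0.47, edgeR FDR = 0.0999) and C1s1 at 1.16 (SE 0.39, edgeR FDR = 0.152) did not pass.

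The K14-Cre-Twist1 comparison asks what loss of Twist1 from the epidermis does to the dermis of the wound center. Twist1 itself was at 57.7, 36.3 and 104.6 CPM in the wild-type dermis libraries and 73.4 and 44.0 CPM in K14-Cre-Twist1 dermis, which overlap, and these values do not check the deletion, since it is in keratinocytes. No member was called, beside 0.0565% of 14163 genes (8 genes). For this comparison too, data were simulated with 1 spread shared by all genes. In these the test recovered 0% of 200 genes given a log2 fold change of 3. That spread is not the spread of each member, so 0% is not a rate for single members. The lack of calls still cannot be read as a lack of change. DESeq2 called 1 member, beside 787 genes in all. By edgeR's likelihood ratio test and the edgeR 3 form 0 members were called, beside 214 and 2 genes in all. An unadjusted p under 0.05 was reached by 2 members, beside 11.5% of all genes.

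These were C2 and C3, in opposite directions. C2 was at 130.6 and 78.6 CPM in K14-Cre-Twist1 against 28.6, 47.2 and 42.1 CPM in the wild type, a log2 fold change of 1.42 (SE 0.34, edgeR FDR = 0.262), and was the member that DESeq2 called (FDR = 0.00178). The groups did not overlap, but the 2 other wild-type center dermis libraries, which entered the comparison with the margin, held 89.0 and 94.7 CPM, within the K14-Cre-Twist1 range. C3 was at 46.3 and 26.4 CPM against 51.2, 90.6 and 114.7 CPM, a log2 fold change of -1.23 (SE 0.43, edgeR FDR = 0.359). The other wild-type libraries again lay within the K14-Cre-Twist1 range, at 29.9 and 29.2 CPM.

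The receptors were uneven among the K14-Cre-Twist1 libraries. C5ar1 was at 39.1 and 4.38 CPM against 37.0, 123.6 and 53.6 CPM in the wild type, and C3ar1 was at 109.2 and 69.7 CPM against 106.0, 131.7 and 135.0 CPM. Wild-type replicate 4, the highest of the 5 wild-type center libraries in C5ar1 and in Serping1 (712.6 CPM), also had the highest sum of 11 neutrophil genes among them, 872 CPM against 27.5 CPM in the lowest. K14-Cre-Twist1 replicate 2, the lowest in both receptors, is the library with 35330 CPM of keratinocyte genes. Leaving out K14-Cre-Twist1 replicate 1 left replicate 2 alone in its group. The log2 fold changes of C3, C3ar1 and C5ar1 were then -1.74, -0.88 and -4.05. C1ra (149.1 and 145.8 CPM against 130.9, 132.6 and 127.4 CPM), C1s1, Cfb, C4b and Serping1 did not reach an unadjusted p under 0.05.

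In spiny mouse epidermis, complement genes changed between PWD14 and PWD21 in opposite directions. C1ra rose from 5.12 and 8.04 CPM at PWD14 to 22.4 and 21.7 CPM at PWD21. C3 went from 4.42 and 4.21 CPM to 3.22 and 2.34 CPM, and C4b from 2.403 and 1.34 CPM to 1.01 and 0.0571 CPM. Of 8 members tested, 2 were called higher at PWD14 (C3 and C4b), beside 23.4% of 12889 genes, and 1 was called lower (C1ra), beside 23.2%. Those shares are near the background, and C5ar1 did not pass the filter.

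The change of C1ra was the firmest of these. Its log2 fold change of PWD14 against PWD21 was -1.18 (SE 0.26, edgeR FDR = 0.00398), and it was called under every alternative run for this comparison, though with C1rb reads added the difference was smaller, at -0.61 (edgeR FDR = 0.0345). C1s1 moved with it, from 3.49 and 3.96 CPM to 9.64 and 7.77 CPM, but was not called alone (-0.69, SE 0.32, edgeR FDR = 0.0961) and was called with C1s2 added (-0.92, edgeR FDR = 0.0199). C3 at 1.13 (SE 0.36, edgeR FDR = 0.0245) lost its call in DESeq2 (FDR = 0.0515), with all 12 spiny mouse libraries in 1 fit and without either PWD21 library. C4b at 1.99 (SE 0.71, edgeR FDR = 0.0389) rested on 31 and 21 reads at PWD14 against 34 and 1 at PWD21, and lost its call in DESeq2 (FDR = 0.0576), in the edgeR 3 form (FDR = 0.0765), with no filter on low counts (FDR = 0.0563), with all 12 libraries in 1 fit (FDR = 0.0718), without PWD14 replicate 1 and without PWD21 replicate 2. Scaling by library totals moved the median of all genes by -0.55 in this comparison and the share of calls higher at PWD14 from 50.2% to 18.9%, and under it C3 and C4b were not called while C1ra and C1s1 were.

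Across all 4 days in epidermis, 4 of 9 members differed among days by an edgeR test of the day factor, beside 59.5% of 14336 genes. C1ra was lowest at PWD0 (1.61 CPM), highest at PWD21 and at 11.3 CPM at PWD28 (edgeR FDR = 0.000257). C1s1 had the same order of days up to PWD21, from 0.567 CPM at PWD0 to 8.42 CPM at PWD28 (edgeR FDR = 0.00228). C3 was low at both ends, with 0.661 CPM at PWD0 and 0.411 CPM at PWD28 (edgeR FDR = 0.00216), and C4b was at 0.0944 CPM at PWD0 and 0 at PWD28 (edgeR FDR = 0.0267). The PWD0 and PWD28 values are 1 library each, assumed in the fit to vary like the other days. C2 lay between 0.616 and 2.17 CPM, Cfb between 0.189 and 1.16 CPM, Serping1 between 0.567 and 4.73 CPM and C3ar1 between 0.155 and 0.828 CPM over the 6 libraries, with no call, and C5ar1 was at 0 at PWD0 and PWD28.

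In the same libraries the classical pathway genes around the members also moved in both directions. The 3 genes of C1q, whose protein recognizes targets for the C1 complex, were called higher at PWD14 than at PWD21. C1qb was at 6.74 and 5.998 CPM against 2.01 and 1.94 CPM (log2 fold change 2.22, SE 0.34, edgeR FDR = 0.000503), C1qc was at 4.96 and 3.64 CPM against 1.42 and 1.71 CPM, and C1qa was at 1.32 and 1.72 CPM against 0.207 and 0.457 CPM. C1s2 was called lower, at 0.853 and 2.04 CPM against 5.44 and 5.82 CPM. In all, 11 of 18 other complement genes tested were called, 8 higher at PWD14 and 3 lower, beside 46.6% of all genes called, 23.4% higher and 23.2% lower. Itgam and Itgb2, the chains of complement receptor 3, were among the lower, Itgam at 5.12 and 3.89 CPM against 27.3 and 36.4 CPM (log2 fold change -2.27, SE 0.28).

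The sum of the neutrophil list moved in the same comparison, being 1514 to 2506 CPM at PWD14 and 181 to 409 CPM at PWD21. Nearly all of this sum was S100a9, so it does not stand for the list as a whole. Of the 11 genes, 2 passed the filter and both were called higher at PWD14, S100a9 with a mean of 2007 against 293 CPM and Ltf with 2.55 against 0.237 CPM, and at PWD14 Retnlg, Ngp, Elane and Mpo had no read. Macrophage sums were 148 to 182 CPM and 204 to 213 CPM. Their part in the complement differences was not tested.

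**Figure D4:**
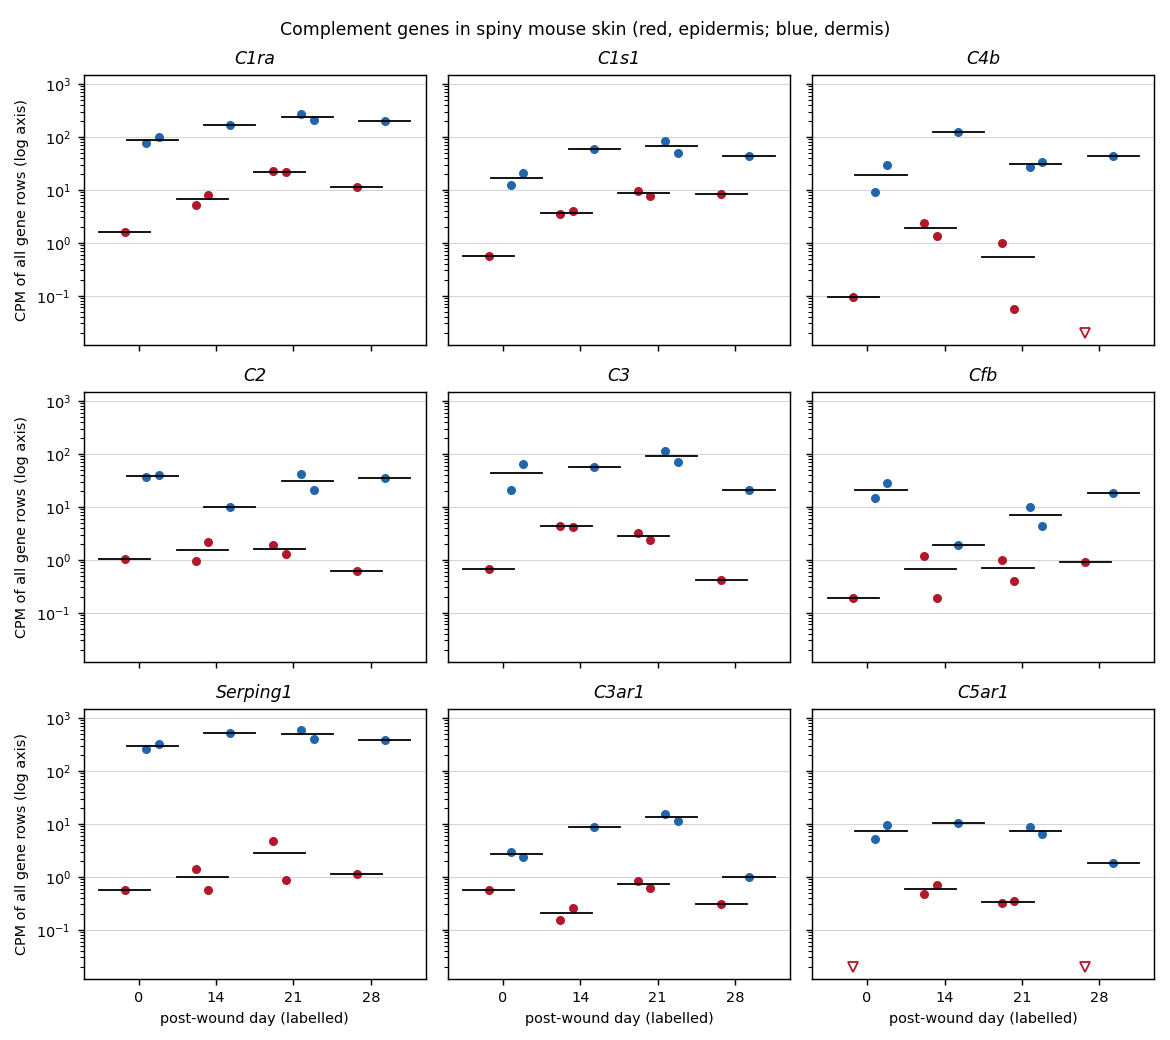
CPM of all gene rows (y axis, log scale) of each member in the 12 spiny mouse libraries by labelled post-wound day (x axis; red, epidermis; blue, dermis; dots, libraries; lines, group means; open triangles, libraries with 0 reads). Epidermal C1ra goes from 1.61 CPM at PWD0 to 22.4 and 21.7 CPM at PWD21, and in the dermis C1ra, C1s1 and C3ar1 are higher and Cfb is lower at PWD21 than at PWD0.

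In spiny mouse dermis, the C1 proteases and C3ar1 rose and Cfb fell between unwounded skin at PWD0 and the wound at PWD21. Of 9 members tested, 3 were called higher at PWD21, beside 12% of 14481 genes, and 1 was called lower, beside 14.2%. C1ra went from 77.3 and 98.0 CPM to 267.3 and 203.4 CPM (log2 fold change 1.32, SE 0.28, edgeR FDR = 0.0109) and C1s1 from 12.4 and 20.4 CPM to 81.9 and 50.1 CPM (1.92, SE 0.34, edgeR FDR = 0.00587). C3ar1, the receptor of C3a, had the largest fold among the members, from 2.998 and 2.35 CPM to 15.4 and 11.2 CPM (2.19, SE 0.45, edgeR FDR = 0.00993). In each of these the 2 days did not overlap.

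Cfb went the other way, from 14.6 and 27.8 CPM at PWD0 to 9.85 and 4.43 CPM at PWD21 (-1.66, SE 0.46, edgeR FDR = 0.0313). C2, the counterpart of Cfb in the classical pathway and its neighbor on chromosome 17, was at 36.5 and 40.4 CPM against 40.8 and 20.7 CPM and did not differ beyond that spread (-0.44, SE 0.36, edgeR FDR = 0.387). C3 was at 21.0 and 65.4 CPM against 112.2 and 69.3 CPM (1.02, SE 0.45, edgeR FDR = 0.123), and C4b at 8.995 and 28.8 CPM against 26.9 and 33.8 CPM (0.64, SE 0.45, edgeR FDR = 0.324). Serping1, the most abundant member, was at 261.9 and 320.5 CPM against 583.5 and 396.0 CPM, without overlap but not called (0.65, SE 0.31, edgeR FDR = 0.151). C5ar1 stayed within its spread, at 5.12 and 9.55 CPM against 8.53 and 6.36 CPM.

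Which members were called depended on single libraries. Without PWD21 replicate 1 the 1 call left was Cfb, and without PWD21 replicate 2 the 2 calls left were C1ra and C1s1. Without PWD0 replicate 2, in which C3 was 65.4 CPM against 21.0 CPM in replicate 1, C3 and C4b were called as well, giving 6 calls. With the copies summed, C1ra (1.18, edgeR FDR = 0.0176) and C1s1 (2.02, edgeR FDR = 0.00539) kept their calls.

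The intermediate and last days add 1 library each. At PWD14 C4b was at 123.3 CPM, above every other spiny mouse library, while Cfb at 1.94 CPM and C2 at 9.71 CPM were the lowest values of those genes in spiny mouse dermis. At PWD28 C3ar1 was at 0.975 CPM and C5ar1 at 1.85 CPM, the lowest values of both receptors in spiny mouse dermis, with C1ra still at 200.1 CPM and Serping1 at 383.8 CPM. The day factor was called for 5 of 9 members (C4b, C1ra, C1s1, Cfb and C3ar1), beside 24.7% of 15344 genes, with edgeR FDR from 0.00772 for C3ar1 to 0.0346 for C1ra. Without the PWD14 library 3 were called, in a fit that called 2715 genes. The count of members called also moved when a PWD0 or PWD21 library was left out, which leaves that day with a lone library.

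Cell type markers also differed between PWD0 and PWD21 dermis. Fibroblast genes were called higher at PWD21 for 6 of 14 and endothelial genes for 4 of 8, whereas 10 of 12 keratinocyte, 6 of 6 mast cell and 5 of 8 skeletal muscle genes were called lower. Mast cell sums were 5388 to 5955 CPM at PWD0, 90.7 CPM at PWD14, 481 to 656 CPM at PWD21 and 1402 CPM at PWD28. Of 10 macrophage genes, 2 were called higher and 1 lower, with sums of 276 to 394 CPM at PWD0 and 443 to 554 CPM at PWD21. Their part was not tested.

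Of 30 other complement genes tested in spiny mouse dermis, 3 were called higher at PWD21 and 5 lower, beside 26.2% of all genes called, so that the share of calls was near the background. By list, 2 of 6 lectin pathway genes were called higher, beside 12% of all genes, and 4 of 6 membrane and fluid-phase regulators lower, beside 14.2%. Masp1, a serine protease of the lectin pathway, went from 0.882 and 4.12 CPM to 49.8 and 55.0 CPM (log2 fold change 4.32, SE 0.55, edgeR FDR = 0.00137). Colec12, a scavenger receptor of the collectin family, went from 30.9 and 74.4 CPM to 323.7 and 268.8 CPM (2.43, SE 0.37, edgeR FDR = 0.00309). Masp1 was still low at PWD14, with 1.59 CPM, and was at 74.0 CPM at PWD28. The other one was C1s2, at 6.88 and 17.3 CPM against 67.7 and 43.8 CPM.

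The largest decrease was that of Cfd, the protease that activates factor B, which is also an abundant product of fat cells. It went from 174.8 and 178.1 CPM at PWD0 to 2.18 CPM at PWD14, 21.1 and 11.3 CPM at PWD21 and 8.29 CPM at PWD28 (log2 fold change of PWD21 against PWD0 -3.57, SE 0.37, edgeR FDR = 0.000571). The other 4 that fell were the regulators. Cd59b, an inhibitor of the terminal complex, was at 9.70 and 7.35 CPM against 0.730 and 0.835 CPM (-3.55, SE 0.53). Clusterin (Clu) was at 123.5 and 167.5 CPM against 45.1 and 40.5 CPM (-1.86, SE 0.27), vitronectin (Vtn) at 26.6 and 43.9 CPM against 15.2 and 11.1 CPM (-1.51, SE 0.34) and Cd55 at 22.2 and 30.1 CPM against 12.4 and 12.1 CPM (-1.19, SE 0.32). Clu and Cd59b were both far higher in spiny mouse epidermis than in dermis at PWD21. Of the 7 regulators tested between these layers, 2 were called higher in epidermis and 3 lower. The keratinocyte sum in dermis was 6952 to 8175 CPM at PWD0 against 769 to 1398 CPM at PWD21, and its part in the decreases was not tested.

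**Figure D5:**
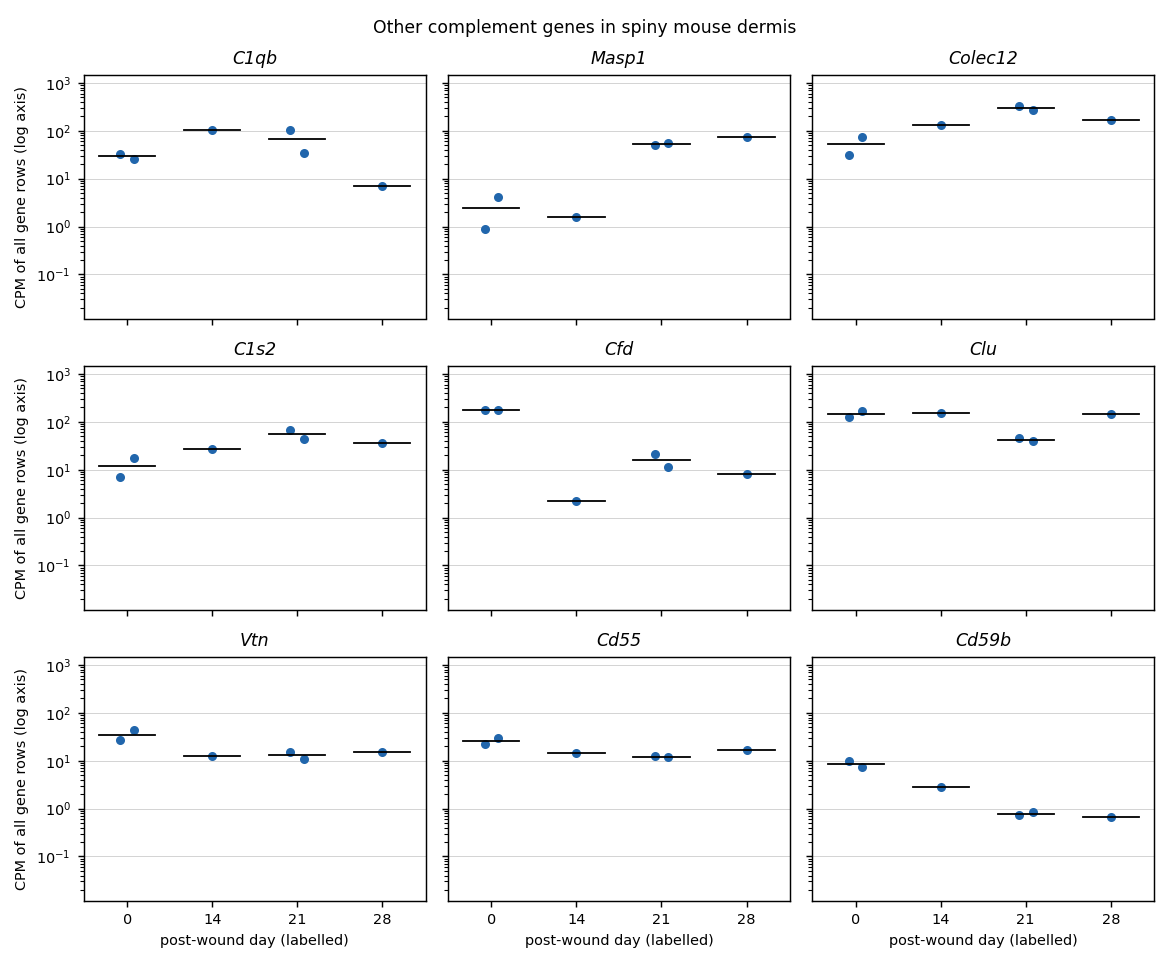
CPM of all gene rows (y axis, log scale) of 9 other complement genes in the 6 spiny mouse dermis libraries by labelled post-wound day (x axis; dots, libraries; lines, group means). Masp1 lies at 0.882 to 4.12 CPM at PWD0 and PWD14 and at 49.8 to 74.0 CPM from PWD21, whereas Cfd lies at 174.8 and 178.1 CPM at PWD0 and at 21.1 CPM or less afterwards.

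Between layers, most of the pathway followed the members. In the laboratory mouse center 21 of 31 other complement genes tested were called, 19 lower in epidermis and 2 higher, beside 25.9% of all genes called higher. In the margin 23 of 31 were called, 21 lower and 2 higher, beside 23.0%, and in spiny mice 30 of 34, 23 lower and 7 higher, beside 29.4%. Clu and C1qbp were called higher in epidermis in all 3 comparisons. Clu, a fluid-phase inhibitor of membrane attack, was at 252.6 and 246.2 CPM in center epidermis against 4.62 and 14.0 CPM in center dermis, a log2 fold change of 5.58 (SE 0.46), with 3.87 (SE 0.41) in the margin and 4.65 (SE 0.23) in spiny mice. The C1q genes were called lower in all 3, C1qc with 7.82 and 7.49 CPM in center epidermis against 281.7 and 313.7 CPM in center dermis (-4.48, SE 0.27).

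Some genes of the pathway differed in direction between the species. Itgam was called lower in epidermis in laboratory mice, at 7.14 and 8.85 CPM against 72.6 and 92.7 CPM in the center (-2.56, SE 0.32), and higher in epidermis in spiny mice at PWD21, at 27.3 and 36.4 CPM against 15.1 and 14.0 CPM (1.24, SE 0.22). Itgax, the chain of complement receptor 4, was likewise called lower in the laboratory mouse center (-2.04, SE 0.36) and higher in spiny mice (4.10, SE 0.36). The difference between species was not tested. Hc, the gene of C5, was at most 28.6 CPM in a margin dermis library of laboratory mice and 2.35 CPM in spiny mice. Mbl1 and Mbl2, which encode mannose-binding lectins, and C8b had no read in any library.

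Between center and margin and between genotypes, few other complement genes moved. Itgb2, the common chain of complement receptors 3 and 4, was the 1 called in laboratory mouse dermis, at 120.4 and 178.0 CPM in the center against 58.7 and 56.1 CPM in the margin (log2 fold change 1.46, SE 0.24, edgeR FDR = 0.0169), out of 29 tested, beside 0.85% of all genes. None of 22 was called in epidermis and none of 29 between K14-Cre-Twist1 and wild type, with 8 and 2 at an unadjusted p under 0.05, beside 23.5% and 11.5% of all genes. C1qc and Colec12 were called in the interaction of region and layer, out of 31 tested, beside 3.48% of all genes. C1qc was at 7.82 and 7.49 CPM in center against 2.10 and 1.60 CPM in margin epidermis, with no such step in dermis (263.7 and 249.4 CPM in the margin), and Colec12 was at 7.24 and 8.20 CPM against 3.29 and 1.18 CPM in epidermis.

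Levels of the members followed different genes across libraries. Likeness was measured as the root mean square difference of log2(CPM + 1), centred on the gene's mean, which over layers of 2 kinds is led by the layer. Over the 13 laboratory mouse libraries the genes nearest to C1s1 were Ccdc80, Sparc and Sgce (0.21 to 0.23) and those nearest to C1ra were Cgnl1, St6galnac6 and Dbn1 (0.18 to 0.24), the 2 proteases being 0.32 from each other. C3ar1 was nearest to Cyth4, Cdr2l and Arap3 (0.16 to 0.20), and C5ar1 to Meox1, Tusc5 and B4galt4 (0.52 to 0.57). Cfb was nearest to Vsir, Cfp and Ctsz (0.37 to 0.43). Cfp is the gene of properdin, which stabilizes the alternative convertase. Over the 12 spiny mouse libraries C3 was nearest to C1qa, C1qc and Tie1 (0.62 to 0.63) and C5ar1 to Ms4a7, Fcgr3 and Asrgl1 (0.30 to 0.40). There C3ar1 was nearest to Zmat4, Slc11a1 and Synpr (0.31 to 0.44) and Cfb to Wfdc1, Tnmd and Pde1c (0.36 to 0.45). Serping1 was nearest to Prrx1, Cpz and Aebp1 (0.43 to 0.50). Not every member's nearest genes are printed here. Aebp1 was also among the 3 nearest to Serping1 in laboratory mice, at 0.59.

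Promoter sequences of RefSeq (GRCm38.p6, 250 bases before to 50 after the start) were given for 5 of the 9 members, C1ra, C1s1, C3, C3ar1 and C5ar1. They were searched on both strands for TTCNNNGAA, the motif of STAT factors, and GAAANNGAA, the core of the interferon response element. C1ra held the first, starting 32 bases after the transcription start, and C5ar1 the second, 66 bases before it, and the others held neither. Of 32851 promoters of the same length, 8.30% held the first motif and 8.56% the second, so that 1 of 5 each is a description only.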

How the data were processed

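For each of the 25 libraries the authors deposited raw read counts per gene symbol, with 5 summary lines of htseq-count that were left out of totals and tests; the reads outside genes are the rest of the shares given above. Per the labels, processing notes name STAR 2.4.1d and HTSeq 0.6.0, reads were 75 bases, and the genome was mm10 with RefSeq genes; spiny mouse reads were aligned to this genome, and the strand setting of the counting is not given in the sources used here, so reads of overlapping antisense genes were not told apart here. Groups come from the labels. The wild-type center dermis libraries were divided by the library names in the study's heat maps (2 compared with the margin, 3 with K14-Cre-Twist1).

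Counts were tested in R 4.3.3 with edgeR 4.0.16 (TMM, filterByExpr, quasi-likelihood test, prior count 0.125) with the Benjamini-Hochberg FDR taken across every gene tested in a comparison and calls at under 0.05. SE was obtained by dividing the absolute log2 fold change by the square root of F. DESeq2 1.42.0, likelihood ratio and edgeR 3 tests, other scalings and filters, single libraries left out and summed copies were alternatives. The code was tested on simulated data, in which all genes of a comparison shared 1 spread. There it recovered 87% of changed genes for center against margin epidermis and 5.5% for the interaction. Levels are CPM of all gene rows, without TMM. The members and gene lists were chosen with earlier results of these data known. Named genes were the 9 members and, of 43 other complement genes, those called in at least 2 comparisons or that copy a member, with the 3 nearest genes as likeness (mean of at least 1 CPM, SD of at least 0.5). Mbl1, Mbl2 and C8b were named after their values were seen. Transcripts were aligned from GENCODE M21 (GRCm38, the build of mm10).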

Additional observations from a re-analysis of the deposited data

Results flagged for a closer look

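A test of the difference between layers pointed to 3 complement genes whose center-margin difference in laboratory mice was larger in epidermis than in dermis. For Serping1 the log2 difference between the 2 contrasts was 3.79, for C1qc 1.84 and for Colec12 2.18. In the same contrast 96.1% of all called genes were positive, 4 of 14 fibroblast, 4 of 8 endothelial and 5 of 12 keratinocyte genes being called positive as well, and the part of those cell types was not tested. For Serping1 the epidermal side rests on margin libraries with 0 and 40 reads.

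Among the 5 wild-type center dermis libraries, no member had a highest or lowest value whose gap exceeded 0.71 of the range. The widest was C5ar1, where replicate 4 stood apart by 0.641 of the range.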

How the results depend on the processing

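No log2 fold change of a member reversed under an alternative in which either value was called. Of 1109 recomputed log2 fold changes, 1067 stayed on the same side of the threshold, 19 gained a call and 23 lost one. All 9 members stayed called in the 3 layer comparisons, with the exception of the filter of at least 10 counts in every library, which leaves low epidermal genes untested and gave 5 in the laboratory mouse center and 5 in the margin. In spiny mice it left C4b, Cfb and C5ar1 untested, which had 1, 7 and 6 reads in replicate 2 of PWD21 epidermis. The filter of at least 10 counts gave 0 calls in the interaction of region and layer and 1 among days in spiny mouse epidermis. The interaction gave 2 calls by likelihood ratio and 0 by DESeq2 and by the edgeR 3 form. DESeq2 gave 1 call for K14-Cre-Twist1 and 1 for spiny mouse epidermis at PWD14 against PWD21, where 1 fit of all 12 libraries gave 1 too. A fit of all 13 laboratory mouse libraries gave 1 between center and margin epidermis, and the likelihood ratio test gave 8 among days in spiny mouse dermis. The cause of these changes was not tested. Leaving out 1 library gave 0 to 4 calls for center against margin epidermis, 0 to 3 for K14-Cre-Twist1, 0 to 3 for the interaction, 2 to 3 for spiny mouse epidermis at PWD14 against PWD21, 1 to 6 for spiny mouse dermis at PWD21 against PWD0, 3 to 5 among days in epidermis and 3 to 8 in dermis. A lone library is there assumed to vary like the other groups. Of 117 group means, 38 moved by more than their spread on the TMM scale. Counts over all genes moved more: from 176 to 1533 (likelihood ratio), 1511 (DESeq2), 397 (13 libraries) and 0 (edgeR 3) for center against margin epidermis, and from 125 to 886, 738 and 54 (likelihood ratio, DESeq2, edgeR 3) in dermis, with 323 when all 5 center libraries entered. For K14-Cre-Twist1, 8 genes became 214, 787 and 2 by the same tests, 0 with at least 10 counts, 190 with 5 wild-type libraries and 444 with 13 libraries. The interaction went from 540 to 1485 and 1125 by likelihood ratio and DESeq2 and to 204 with at least 10 counts, and days in dermis from 3795 to 6597 by likelihood ratio. The edgeR 3 form and the summed copies were added after seeing the data. No paired analysis was possible because the labels give no replicate numbers. Members under about 1 CPM rest on few reads at these depths.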
